A study of Mus musculus with 12 samples.

Results

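Genes that carry clusters of many H3K27ac regions were taken as every gene whose name was assigned to 12 or more distinct regions of the deposited table. The rule selected 475 of 11240 genes, 4.23% of genes, and these genes held 8520 of 36387 regions, or 23.4%. They were chosen by the number of listed regions, which is itself a readout of where acetylation was detected. The number of regions and the size of a cluster are therefore given as a description and were not tested. Regions were counted without regard to how closely they lie. Cluster span divided by the number of gaps between regions had a median of 4.60 kb in the members. It was 4.38 kb in genes with 6 to 11 regions and 2.24 kb in those with 2 to 11, so the members were not more closely spaced. At the threshold, 85 genes had exactly 12 regions and 94 genes had exactly 11. The median gene change was −1.25 on the log2 scale at exactly 12 regions and −1.17 at exactly 11, and the median SD of change between the regions of a gene was 0.523 and 0.579.

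The study measured acetylation of histone H3 at lysine 27 by chromatin immunoprecipitation and sequencing in mouse liver. All mice carried floxed Cox10 alleles; Cox10 makes a haem A precursor that cytochrome c oxidase of the respiratory chain needs. Controls, called wild type, received AAV8-GFP and the knockout, labelled Cox10-/-, received AAV8-Cre, which drives recombination in the liver. Both groups underwent 70% partial hepatectomy 4 weeks after the virus, and liver was collected on day 2 of regeneration. There were 3 H3K27ac libraries per genotype, and 6 libraries of input chromatin were left aside. Replicates are numbered in the labels without a statement that each is its own animal, so p-values measure only the spread between libraries, which may be technical. The tissue is bulk liver, so fewer cells that carry a mark and less of the mark per cell cannot be told apart.

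H3K27ac is placed by the acetyltransferases CBP and p300 on nucleosomes that flank active promoters and enhancers. Long runs of closely spaced acetylated regions are a known feature of genes that define a cell type, and in liver these include genes for plasma proteins and for hepatocyte transcription factors. Single enhancers within such a run can bind different factors, and distal regions are named here for the closest gene, which may differ from their target.

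The libraries held between 3282878 and 4187377 reads in regions, with size factors of 0.730 to 0.782 in wild-type libraries and 1.18 to 1.32 in knockout libraries. Both reads and size factors were estimated from the step between low deposited values of a library. The division by these factors sets the direction of most calls. Calls with each library centred on its median are therefore given beside the main ones. The median was taken over all regions for calls by region and over all genes for calls by gene. Regions of the 475 genes made up 23.8% to 24.01% of the normalised reads in wild-type libraries and 22.6% to 22.7% in knockout libraries, and no test was made of this share. Between replicates of a genotype the chi-square of the counts per degree of freedom was 1.06 to 1.19, and between genotypes 10.2 to 10.6. All 8 hepatocyte markers checked had regions, and none of 6 stellate cell markers had one.

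Promoter sequence is shown for 5 genes that stand for the patterns described below: Rreb1 for a long cluster, Mtarc2 for uniform change, Serpina1b for the lowest change, and Slc2a1 and Abhd6 for clusters with regions that went both ways. Each line gives the 250 bases before a RefSeq start site, 5′ to 3′ on the strand of the gene, from GRCm38.p6, the same assembly as the mm10 build of the table. The windows are chr13:37826662-37826911 on the plus strand for Rreb1, chr1:184846452-184846701 on the minus strand for Mtarc2, chr12:103738190-103738439 on the minus strand for Serpina1b, chr4:119108495-119108744 on the plus strand for Slc2a1 and chr14:8002638-8002887 on the plus strand for Abhd6. Capitals mark a match to 1 of 5 motifs named below.
Rreb1: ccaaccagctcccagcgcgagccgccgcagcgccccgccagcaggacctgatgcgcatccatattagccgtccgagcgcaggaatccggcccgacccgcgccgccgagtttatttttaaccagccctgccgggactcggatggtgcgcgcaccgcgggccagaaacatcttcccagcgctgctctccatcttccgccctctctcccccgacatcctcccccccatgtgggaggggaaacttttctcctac
Mtarc2: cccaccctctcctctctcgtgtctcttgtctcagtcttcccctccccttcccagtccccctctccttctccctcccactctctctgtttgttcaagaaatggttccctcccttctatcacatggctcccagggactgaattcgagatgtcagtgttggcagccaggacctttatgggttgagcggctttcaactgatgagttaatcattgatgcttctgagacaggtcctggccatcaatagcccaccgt
Serpina1b: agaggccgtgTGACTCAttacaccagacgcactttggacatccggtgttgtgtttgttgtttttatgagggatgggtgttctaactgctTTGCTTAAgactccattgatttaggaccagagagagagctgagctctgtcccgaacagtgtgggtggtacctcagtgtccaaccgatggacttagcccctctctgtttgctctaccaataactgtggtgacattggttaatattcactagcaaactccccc
Slc2a1: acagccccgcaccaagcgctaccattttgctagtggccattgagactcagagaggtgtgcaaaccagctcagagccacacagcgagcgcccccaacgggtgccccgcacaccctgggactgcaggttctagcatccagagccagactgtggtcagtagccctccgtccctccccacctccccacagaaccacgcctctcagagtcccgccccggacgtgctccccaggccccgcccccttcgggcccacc
Abhd6: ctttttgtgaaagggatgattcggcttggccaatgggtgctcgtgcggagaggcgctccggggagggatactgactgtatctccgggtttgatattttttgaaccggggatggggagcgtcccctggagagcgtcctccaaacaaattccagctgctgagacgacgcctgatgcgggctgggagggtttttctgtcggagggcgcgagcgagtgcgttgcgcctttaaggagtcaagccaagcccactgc
The windows of Rreb1, Mtarc2 and Abhd6 overlapped an acetylated region, and those of Serpina1b and Slc2a1 ended 51 and 57 bases from one. The region at the Rreb1 window had 856 ± 35.3 normalised reads in wild-type libraries and 414 ± 27.9 in knockout libraries (SD, n = 3 each). The region next to the Serpina1b window had 178 ± 12.5 and 28.2 ± 2.42, and that next to the Slc2a1 window 124 ± 8.09 and 81.4 ± 11.2. The Serpina1b window was the one of the 5 with matches, to the AP-1 and the CEBP motif.

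In all, 357 of 475 genes had a RefSeq promoter entry, with 566 windows, of which 363 (64.1%) overlapped a region of their gene and 457 (80.7%) lay within 1 kb of one. Over the 250 upstream bases, read on both strands, the AP-1 motif TGANTCA was found in 4.77% of these windows and in 6.75% of all 32851 promoter windows. The CEBP motif TTGCNNAA was found in 10.8% against 9.56% and the FOXA motif TGTTTAC in 4.24% against 3.17%. The E-box CACGTG stood in 9.54% against 6.02%, and TATAAA in 9.01% against 12.4%. No motif of the 5 contains another. The shares were not tested, and a match is a description of the letters and not a binding site.

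A pair of microRNA genes passed the rule, and their mature sequences identify them. Capitals mark the seed, bases 2 to 8 of the mature RNA, and the seeds differ from one another.
mmu-let-7c-5p: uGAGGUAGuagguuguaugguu
mmu-let-7c-2-3p: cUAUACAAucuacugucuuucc
mmu-miR-680: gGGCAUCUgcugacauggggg
Mirlet7c-2, which encodes the let-7c pair, had 24 regions. Its mean level per region was 204, 193 and 197 normalised reads in wild-type libraries and 110, 106 and 97.6 in knockout libraries. The genotypes did not overlap, and the gene change was −0.87 ± 0.092 (SE, adjusted p = 3.76e-07). The regions may belong to the host transcript around the hairpin as well as to the microRNA. Mir680-3 had 12 regions and a change of −0.37 ± 0.096 (adjusted p = 0.00201).

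Acetylation fell at most regions of the 475 genes. Of their 8520 regions, 7196 (84.5%) were lower and 481 (5.65%) higher in the knockout (limma on log2(value + 1), Benjamini-Hochberg adjusted p under 0.05), against 87.2% lower and 4.46% higher over all 36387 regions. The median region of these genes changed by −1.18 on the log2 scale, 2.26-fold lower, and the median over all regions was −1.04. With libraries centred, 3257 (38.2%) were lower and 2449 (28.7%) higher, against 32.4% and 33.6% of all regions. The split into lower and higher calls thus depends on how libraries were scaled.

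For a test by gene, log2 values were averaged over the regions of each gene, and all 11240 genes were fitted. Of the 475 genes, 448 (94.3%) were lower, 11 (2.32%) higher and 16 passed in neither direction, where 91.0% of all genes were lower and 2.78% higher. With libraries centred on their median over genes, 229 (48.2%) were lower, 120 higher and 126 passed in neither direction, against 29.8% and 34.0% of all genes. The median change was −0.90 over all genes and −1.04 over all regions, so centred calls by gene and by region have unlike references. The median gene change was −1.12 with quartiles of −1.55 and −0.77. Genes with 1 region had a median of −0.79 and genes with 2 to 11 regions −1.02. The 1179 genes with 6 to 11 regions, next below the members, had a median of −1.27, lower than that of the members, and 55.9% of them were lower with libraries centred. Genes with 25 or more regions had a median of −0.98 and those with 12 to 14 a median of −1.20, so the change did not go steadily with the number of regions.

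**Figure D1:**
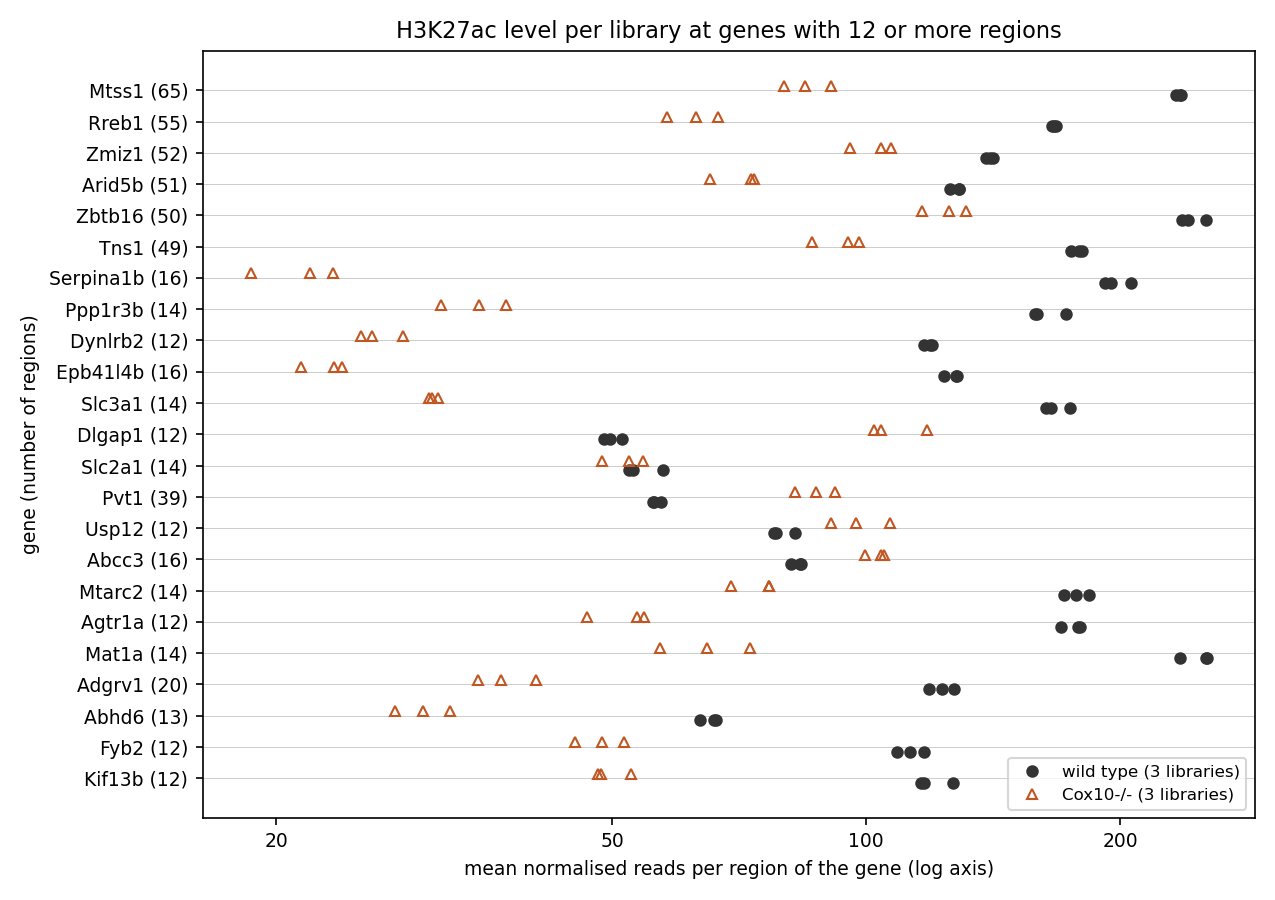
Mean normalised reads per region (log axis) in each library at 23 genes named for their number of regions, their change or their spread; filled circles are the 3 wild-type and open triangles the 3 Cox10-/- libraries, and the number of regions is in parentheses. The libraries of the genotypes are apart at every gene drawn except Slc2a1, where they overlap, and the knockout libraries are higher at Dlgap1, Pvt1, Usp12 and Abcc3.

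The 6 genes with the most regions were Mtss1, Rreb1, Zmiz1, Arid5b, Zbtb16 and Tns1, with 65, 55, 52, 51, 50 and 49. Mtss1 encodes a protein that binds actin and bends membranes, and its regions spanned 107 kb of chromosome 15, from 58975154 to 59082508. Its mean level was 236, 233 and 235 normalised reads in wild-type libraries and 90.9, 84.7 and 79.9 in knockout libraries, with a change of −1.42 ± 0.095 (SE, adjusted p = 3.60e-09). All 65 of its regions were lower, from −2.16 to −0.57, and its strongest region, at the promoter, changed by −1.38 ± 0.068.

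Rreb1, a zinc finger transcription factor of the Ras pathway, had 167 ± 0.835 normalised reads per region in wild-type libraries and 62.6 ± 4.32 in knockout libraries (SD, n = 3 each). Its change was −1.46 ± 0.099, and 54 of its 55 regions were lower. The exception was a promoter region at 37778504 to 37779061 of chromosome 13, with 91.8, 97.2 and 66.5 normalised reads in wild-type libraries and 83.3, 83.1 and 75.8 in knockout libraries. The genotypes overlapped there, while a distal region of the same cluster, at 37732908 to 37733617, went from 198, 197 and 201 to 34.0, 30.7 and 21.2. Both regions differed from the mean of the other Rreb1 regions, by 1.43 (adjusted p = 1.11e-06) and −1.34 (adjusted p = 1.67e-06).

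Zmiz1, a transcription coactivator related to the PIAS proteins, fell least of the 6, by 0.42 on the log2 scale (SE 0.095, adjusted p = 5.93e-04), with 29 regions lower, 3 higher and 20 that did not pass. Arid5b, an AT-rich DNA-binding protein, changed by −0.79 ± 0.097, with 39 regions lower and 3 higher. Zbtb16, also called PLZF, changed by −0.82 ± 0.094, and the focal adhesion protein gene Tns1 by −0.84 ± 0.094. With libraries centred, Mtss1 and Rreb1 were lower (−0.45 and −0.50, adjusted p = 2.60e-04 and 2.09e-04) and Zmiz1 was higher (0.54, adjusted p = 1.18e-04). The scatter plot of change against spread places all 475 genes.

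**Figure D2:**
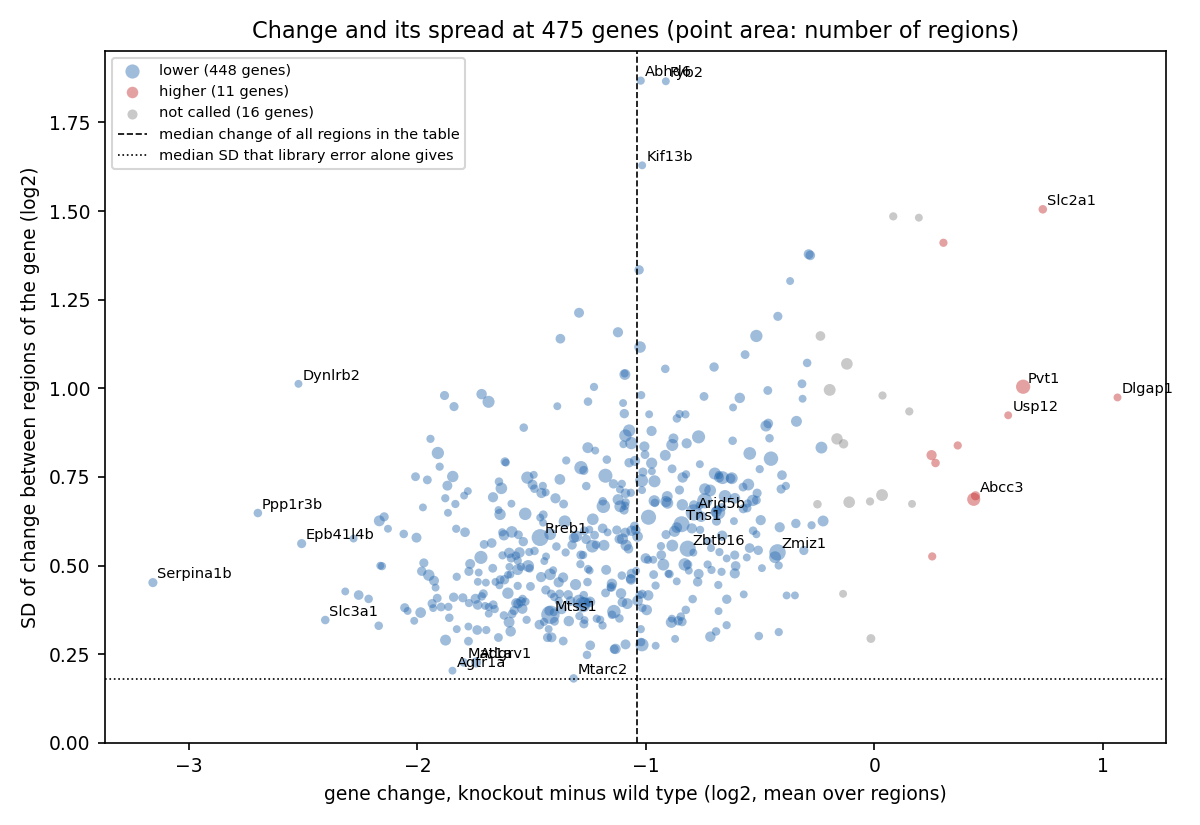
Change of each gene in the knockout (log2, mean over its regions) against the SD of change between its regions, for 475 genes, with point area proportional to the number of regions. Of the points, 448 are lower, 11 higher and 16 not called, and the median SD of 0.575 lies above the dotted line at 0.180, the median that differences between libraries alone would give.

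The lowest gene change was at Serpina1b, an alpha-1 antitrypsin gene, followed by Ppp1r3b, Dynlrb2, Epb41l4b and Slc3a1. Serpina1b had 206, 195 and 192 normalised reads per region in wild-type libraries and 23.4, 21.9 and 18.7 in knockout libraries. No library of the knockout came near the wild type, and the change was −3.16 ± 0.130 (adjusted p = 1.55e-10). All 16 regions were lower, from −3.97 to −2.43, over 95.0 kb of chromosome 12. Near-identical Serpina1 copies lie beside it, and how reads shared between them were placed was not given in the sources used here, so its value may hold reads of other copies.

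Ppp1r3b, the subunit that brings protein phosphatase 1 to glycogen, had 159, 159 and 172 normalised reads in wild-type libraries and 34.8, 37.5 and 31.4 in knockout libraries, a change of −2.70 ± 0.118. Its 2 least affected regions lay at the promoter and still changed by −1.65 ± 0.108 and −1.70 ± 0.091, while a distal region went from 133, 129 and 144 to 9.35, 13.7 and 4.55. Dynlrb2, a dynein light chain gene, changed by −2.52 ± 0.129 with a wide SD of 1.01 between regions. All of the Dynlrb2 regions were distal intergenic and carry its name as the closest gene, so they may belong to another gene. Epb41l4b, a FERM domain protein gene, changed by −2.51 ± 0.123. Slc3a1, a subunit of the cystine and dibasic amino acid transporter, changed by −2.40 ± 0.098. With each of these 5 genes, every region was lower.

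The 11 higher genes were Dlgap1, Slc2a1, Pvt1, Usp12, Abcc3, Lipc, Plin2, Sorbs2, Rin3, Klf6 and Susd1. Dlgap1, known for a scaffold protein of synapses, had 49.8, 48.8 and 51.4 normalised reads per region in wild-type libraries and 118, 104 and 102 in knockout libraries. Every knockout library was above every wild-type library, and the change was 1.06 ± 0.110 (adjusted p = 3.04e-07). Of its 12 regions 10 were higher, and some of them lie in exons of an overlapping noncoding transcript, so the marks cannot be given to 1 of the transcripts.

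Pvt1, a long noncoding RNA gene beside Myc, had 39 regions over 464 kb of chromosome 15. Its level was 56.0, 57.2 and 55.9 normalised reads in wild-type libraries and 91.9, 87.1 and 82.3 in knockout libraries, with no overlap and a change of 0.65 ± 0.107 (adjusted p = 3.46e-05). Within it 26 regions were higher and 6 lower. An intronic region at 62334601 to 62336048 rose from 33.3, 30.1 and 34.5 normalised reads to 223, 202 and 220, a change of 2.68 ± 0.144, while another region of the same intron, at 62328534 to 62328739, fell from 38.6, 54.8 and 51.1 to 12.7, 9.68 and 9.85. Regions of 1 intron thus moved in opposite directions.

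Usp12, a deubiquitinase gene, changed by 0.59 ± 0.109 (adjusted p = 1.14e-04), with 6 distal regions higher and 1, its promoter, lower. Abcc3, an efflux transporter of the basolateral membrane of hepatocytes, had 83.6, 81.4 and 83.6 normalised reads in wild-type libraries and 104, 105 and 99.8 in knockout libraries, a change of 0.44 ± 0.097 (adjusted p = 4.92e-04). Lipc, hepatic lipase, had 61.8, 62.2 and 61.2 and then 83.9, 80.6 and 74.2, a change of 0.43 ± 0.104 (adjusted p = 0.00102). At both genes the knockout libraries were all higher.

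A mean of log2 values counts a weak region as much as a strong one, so genes were also tested on the log2 of the sum over their regions. By the sum 461 genes (97.1%) were lower and 6 (1.26%) higher, where 92.7% of all genes were lower and 2.02% higher. Of the 11 genes higher by the mean, 5 were higher by both (Pvt1, Lipc, Abcc3, Dlgap1 and Usp12). Sorbs2, an adaptor of the actin cytoskeleton, was higher by the mean (0.30, adjusted p = 0.00723) and lower by the sum (−0.49, adjusted p = 2.76e-13). Slc2a1 had a mean change of 0.74 ± 0.142 (adjusted p = 1.66e-04) and a sum change of −0.07 (adjusted p = 0.380). Plin2, a lipid droplet protein gene, had 0.37 and −0.04, and Klf6, an early response transcription factor gene, 0.25 and −0.04.

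Markers of other cell types were followed beside these higher genes. Summed over the 2 of 6 macrophage markers with a region, the level was 290 to 304 normalised reads in wild-type libraries and 518 to 611 in knockout libraries, and Adgre1, Clec4f, Csf1r and Marco had no region. The 2 of 6 endothelial markers with a region had 521 to 588 and 312 to 388, the 2 of 6 cholangiocyte markers 97.2 to 118 and 82.6 to 97.7, and the 1 of 6 blood markers 121 to 169 and 31.1 to 36.3. The 8 hepatocyte markers, with 90 regions, had 18041 to 18799 and 5418 to 6220. The part of these marker levels in the results at higher genes was not tested.

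The regions of a gene did not change alike. The SD of change between the regions of a gene had a median of 0.575 over the 475 genes, from 0.182 to 1.87, where differences between libraries alone would give a median of 0.180. Genes with 2 to 11 regions had a median SD of 0.367, many of them with too few regions for a close estimate, and genes with 6 to 11 regions had 0.511, near that of members with 12 to 14. By size the median was 0.526 at 12 to 14 regions, 0.565 at 15 to 24 and 0.681 at 25 or more. Of the variance of change over the 8520 regions, 43.3% lay between genes and 56.7% between regions of the same gene, and 4.61% of the whole was of the size that library error gives.

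Each region was then tested against the mean of the other regions of its gene, a difference that a scaling of whole libraries hardly moves. Of the 8520 regions 2076 (24.4%) fell more than the rest of their gene, or rose less, and 1947 (22.9%) fell less or rose more. Over all 31707 regions of genes with at least 2 regions, 22.5% and 22.4% did so. Such regions were found in 473 of the 475 genes, and in 461 genes in both directions. The exceptions were Adgrv1, an adhesion receptor gene with 20 regions, and Agtr1a, the angiotensin II receptor gene with 12. A gene with more regions has more chances to hold a called region, and these gene counts were not compared with smaller genes.

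The narrowest spread was at Mtarc2, a molybdenum enzyme of the outer mitochondrial membrane, with an SD of 0.182 and 14 regions between −1.62 and −1.01. Agtr1a had an SD of 0.204, Mat1a, the hepatic methionine adenosyltransferase gene, 0.227, and Adgrv1 0.227. Mat1a had 253, 253 and 236 normalised reads per region in wild-type libraries and 72.8, 64.8 and 57.0 in knockout libraries. Its 14 regions all lay between −2.22 and −1.40, and its libraries did not overlap between genotypes. At Adgrv1 the 20 regions lay between −2.20 and −1.32 over 158 kb.

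The widest spread was at Abhd6, Fyb2, Kif13b and Slc2a1, and in Abhd6, Fyb2 and Kif13b the higher regions lay side by side. Abhd6, a monoacylglycerol lipase gene, had an SD of 1.87, with 9 regions lower and 3 higher. Its strongest region, at the promoter, went from 192, 188 and 189 to 53.5, 54.9 and 68.2 normalised reads. A region of a 5′ UTR at 8028056 to 8028416 of chromosome 14 went from 6.65, 10.96 and 19.2 to 57.8, 56.5 and 50.003. The 3 higher regions of Abhd6 were neighbours in the middle of the cluster, with lower regions before them. After them came a region that did not pass (0.18 ± 0.328), and then lower regions again.

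Fyb2, an adaptor protein gene, had an SD of 1.87, with 10 regions lower and 2 higher, both in the first intron. One of them, at 104927990 to 104928593 of chromosome 4, had 7.98, 4.11 and 3.83 normalised reads in wild-type libraries and 76.5, 61.3 and 68.9 in knockout libraries. Its change was 3.52 ± 0.313 (adjusted p = 9.38e-23), 11.5-fold higher on the log2(value + 1) scale, and it was 4.84 above the mean of the other Fyb2 regions. The promoter of Fyb2 moved the other way, from 283, 259 and 293 to 133, 133 and 110. Because the wild-type values of the intronic region are a few reads, the size of its rise is less certain than its direction.

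Kif13b, a kinesin gene, had an SD of 1.63. The first 10 regions along its cluster were lower and the last 2 higher, in an exon and the intron beside it. The exonic region, at 64765282 to 64765867 of chromosome 14, went from 18.6, 13.7 and 10.2 to 72.2, 72.6 and 76.5 normalised reads, and the promoter from 415, 322 and 312 to 170, 160 and 163. The knockout values of the promoter lay below every wild-type value, and those of the exonic region above.

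Slc2a1, the glucose transporter GLUT1, had an SD of 1.505 and a mean level that overlapped between genotypes, 57.4, 52.4 and 53.0 normalised reads in wild-type libraries and 54.4, 52.3 and 48.6 in knockout libraries. The overlap hid opposite changes. The 6 regions upstream of the promoter were all higher, and the one at 119102145 to 119102405 of chromosome 4 went from 3.99, 5.48 and 3.83 to 40.8, 46.0 and 40.9. The next 5, at the promoter and in the first intron, were all lower. The strongest, at 119119655 to 119120300, went from 185, 166 and 178 to 75.6, 88.8 and 60.6, a change of −1.24 ± 0.129. Of the 3 last regions 1 was higher and 2 did not pass.

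**Figure D3:**
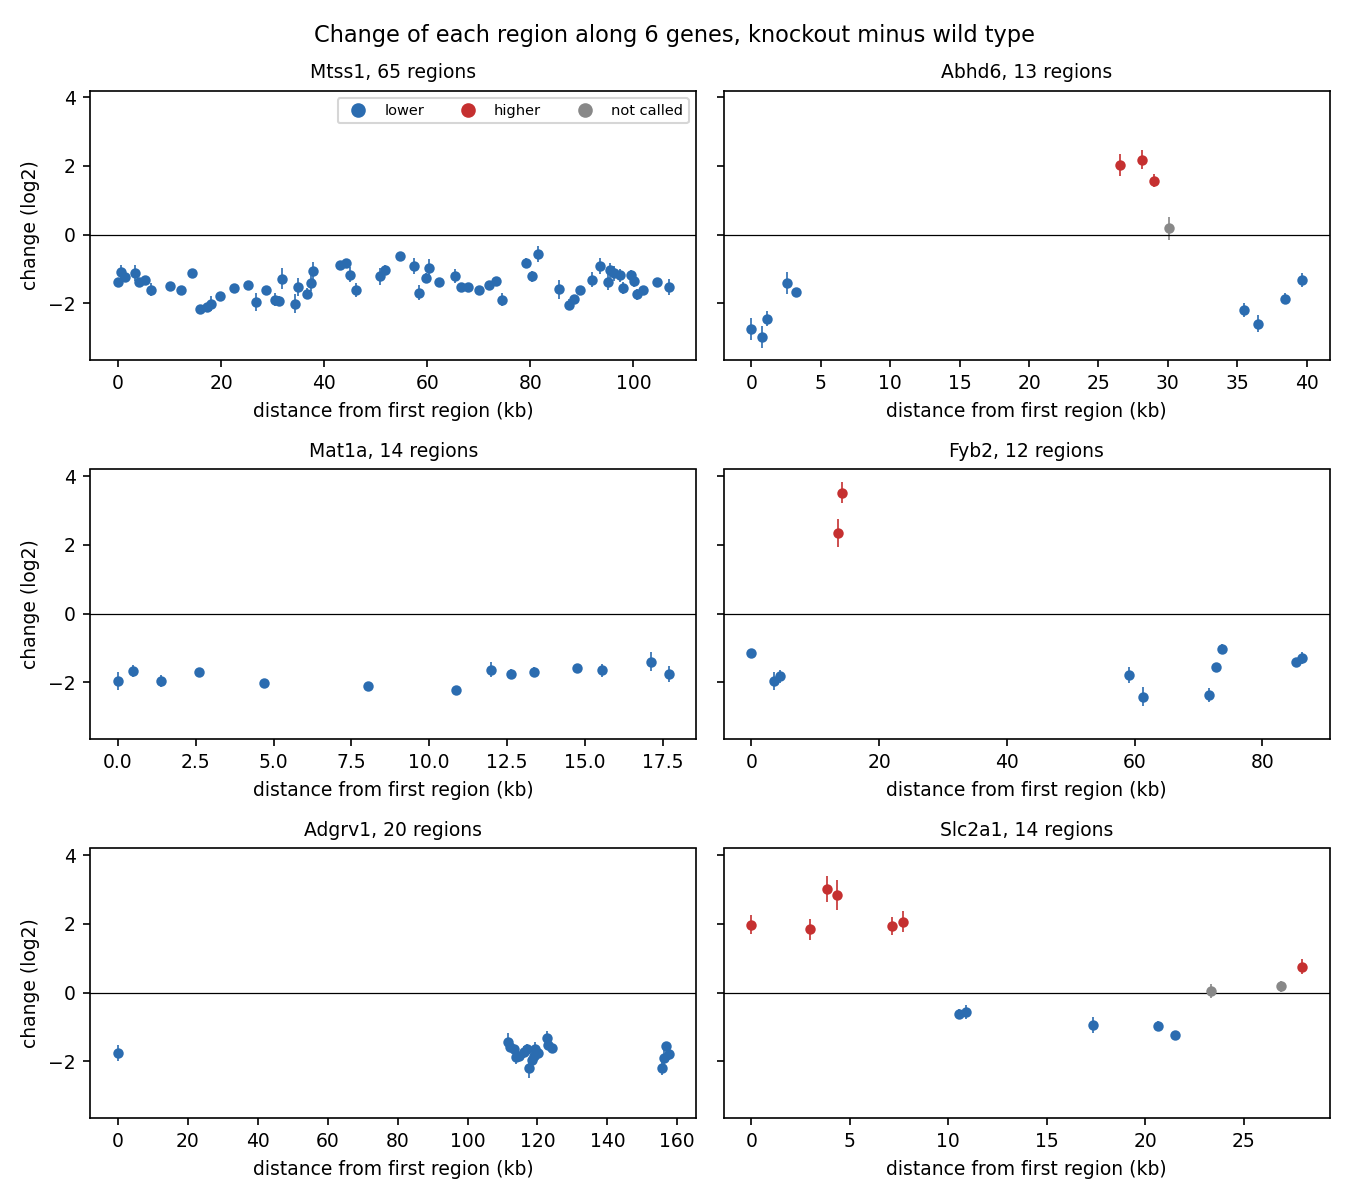
Change of each region (log2, knockout minus wild type, bars are SE from limma, 3 libraries per genotype) against distance from the first region of the cluster in kb, for 3 genes with every region lower (Mtss1, Mat1a, Adgrv1) and 3 of the genes with the widest spread (Abhd6, Fyb2, Slc2a1). At Mtss1 the changes run from −2.16 to −0.57, a wider range than at Mat1a or Adgrv1, whereas the 3 higher regions of Abhd6, the 2 of Fyb2 and 6 of the 7 of Slc2a1 are neighbours.

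Over the 475 genes, 173 had every region lower, 0 had every region higher, and 171 had at least 1 lower and 1 higher region. The first and the last are 36.4% and 36.0% of the members, against 79.4% and 6.14% of all genes, most of which have few regions, and 59.8% and 20.02% of the 1179 genes with 6 to 11 regions. A gene with more regions can more easily hold an exception, and these shares were not tested. In the 171 genes, 481 of 3394 regions (14.2%) were higher, in 263 runs of adjoining regions, of which 141 were single regions and 122 held 2 or more. Of the higher regions 70.7% had a higher region next to them, and of the lower regions 9.69% did. The longest run was 8 regions over 46.5 kb at Lipc. Runs of 7 were found at Azin1, Dlgap1, Foxp1 and Pvt1, and Slc2a1 held a run of 6 within 8.003 kb. Close regions can share broad signal, so these runs are a description.

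Regions close to each other differed less in change than regions far apart. Over pairs of regions of 1 gene, the median absolute difference in change was 0.277 at under 2 kb, 0.447 at 5 to 10 kb, 0.601 at 20 to 50 kb and 0.730 at 100 to 200 kb, on the log2 scale. The median that library error alone would give was 0.163 to 0.170 at every distance. The bins hold different genes, 475 at under 2 kb and 178 at 100 to 200 kb. Over the 178 genes alone the medians were 0.277 at under 2 kb, 0.445 at 5 to 10 kb, 0.5997 at 20 to 50 kb and 0.730 at 100 to 200 kb. Over 8045 pairs of next regions, Pearson's r of the changes was 0.705, and 0.472 after the gene mean was removed. These are values across regions of the same 6 libraries, which are not independent replicates. Next regions with different gene names, neither a promoter, were compared with those of 1 gene at like distances. The medians were 0.373 over 13 pairs against 0.438 at 2 to 5 kb, 0.549 over 23 pairs against 0.555 at 5 to 10 kb, 0.553 over 43 against 0.608 at 10 to 20 kb and 0.787 over 66 against 0.741 at 20 to 50 kb. The order was not the same in every bin, and no test was made.

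**Figure D4:**
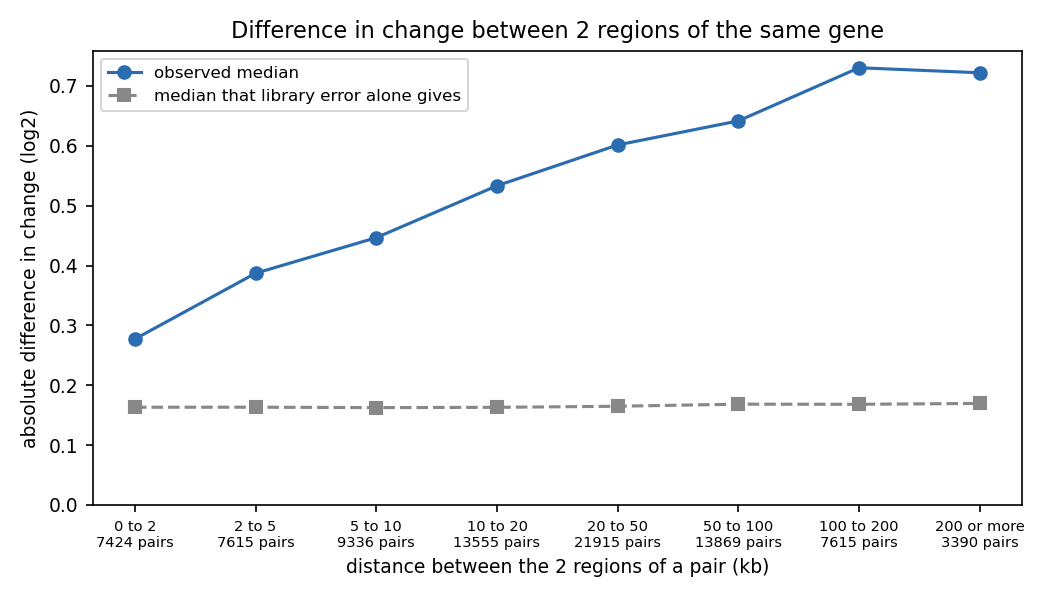
Median absolute difference in change (log2) between 2 regions of the same gene, by distance between them in kb, for pairs within the 475 genes. The observed median (circles) goes from 0.277 at under 2 kb to 0.730 at 100 to 200 kb and 0.722 at 200 kb or more, and the median that library error alone would give (squares) stays between 0.163 and 0.170.

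Neighbouring clusters were compared next. There were 15 pairs of member genes whose clusters lay within 20 kb, with 29 genes in all and no overlap. The gene changes of a pair differed by a median of 0.308. The SD over the 475 genes was 0.577, but an SD and a difference between 2 genes are unlike measures. No test was made against other pairs of genes. Klf15, a transcription factor gene of fasting metabolism, and Aldh1l1, a folate enzyme gene, changed by −1.77 and −1.95. Ly86 and Rreb1, 1.98 kb apart, changed by −1.28 and −1.46, and Mirlet7c-2 and Ppara by −0.87 and −1.53. The largest difference, 0.752, was between Sdr42e1 and Hsd17b2 with −1.09 and −0.34. Boundaries between such clusters come from the gene names in the table.

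The mix of region classes in these clusters differed from that of the whole table, which includes these clusters. Regions within 1 kb of a start site, here called promoters, made up 16.5% of the member regions and 43.9% of all regions, which follows in part from the rule, since a gene has few start sites and 12 regions must lie somewhere. Later introns held 27.4%, first introns 21.0% and distal intergenic sequence 21.0%. The median change was −1.05 at promoters, −1.25 in first introns, −1.19 in later introns and −1.15 in distal sequence. Higher regions were 2.07% of promoters, 5.30% of first introns, 7.76% of later introns and 6.25% of distal regions, against 1.26%, 7.12%, 8.79% and 6.90% of these classes over the whole table. In exons, UTRs and gene ends, a class of 337 member regions, 10.4% were higher, against 7.29% over the whole table. The 481 higher regions were weak in wild type, with a median of 31.4 normalised reads and 58.8 in the knockout, against 110 and 43.6 at the 7196 lower regions. The 843 regions not called had 49.8 and 46.2. A region is called higher by its knockout level against its wild-type level, so a low wild-type level follows in part from the call.

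Promoters were set against the other regions of the same gene in 445 genes, and 30 had no promoter region. The promoter fell less than the other regions, or rose more, in 133 genes and fell more, or rose less, in 109, and 203 passed in neither direction. Over all 3665 genes tested 37.0% of promoters fell less and 22.0% fell more. Among the called genes the promoter was on the side of the smaller fall in 55.0% of the members and in 62.7% of all genes. With a pseudocount of 8 the balance in the members tipped, with 108 that fell less and 119 that fell more. This split therefore changes with the pseudocount.

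At Hnf4a, a nuclear receptor that defines hepatocytes, the promoter fell more, by 1.73 against 0.86 on the log2 scale for the other regions (difference −0.88 ± 0.115, adjusted p = 2.75e-04). At Ppara, the fatty acid receptor, the promoter fell less, with −1.20 against −1.61 (difference 0.42 ± 0.106, adjusted p = 0.00845). The single promoter region of Lipc changed by −1.28 while its other regions averaged 0.49. Snd1 and Azin1, the extremes, were chosen after their values were seen. At Snd1, a nuclease-domain coactivator gene, the promoter changed by −0.26 and the rest by −2.25. At Azin1, the antizyme inhibitor gene, it was −1.20 against 0.66.

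**Figure D5:**
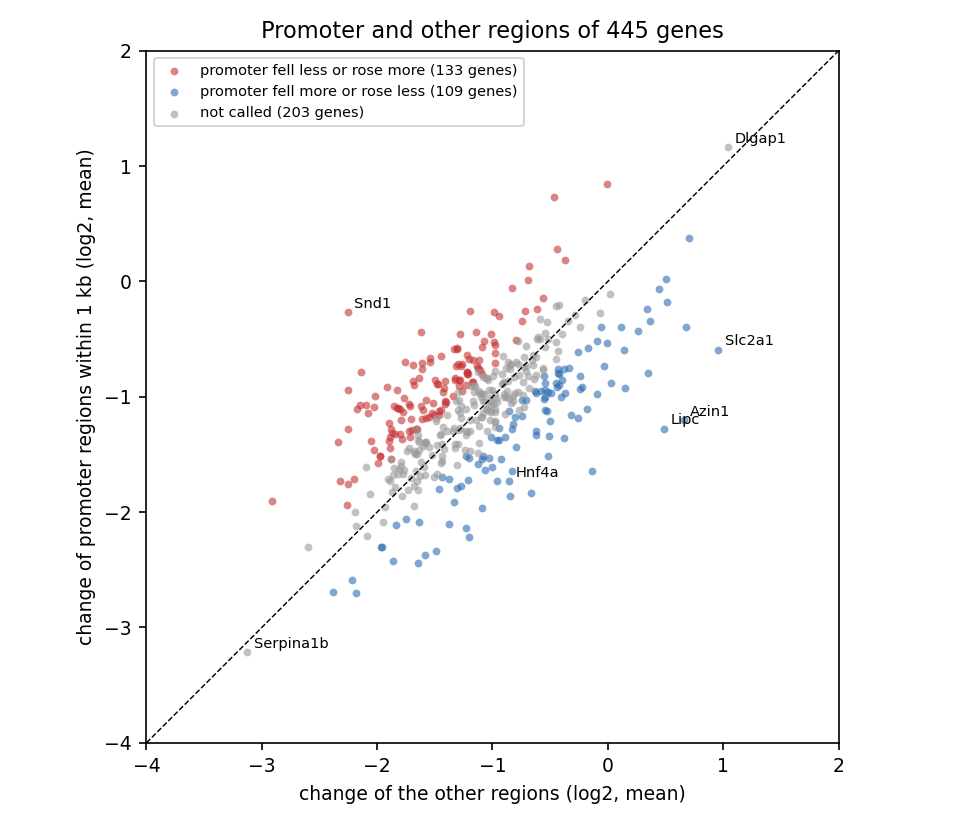
Mean change of the promoter regions (within 1 kb of a start site) against mean change of the other regions (both log2, knockout minus wild type) for 445 genes; the dashed line marks equal change. The promoter fell less or rose more in 133 genes, above the line, and fell more or rose less in 109, below it, with Snd1 and Azin1 farthest from it.

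The strongest region of a gene mostly stayed the same. Between libraries of 1 genotype the same region was the strongest in 428 to 441 of 475 genes, and between genotypes in 353 to 367. The counts of these kinds of library pair did not overlap. The pairs share the same 6 libraries, and no test was made. The cluster span had a median of 75.9 kb. The 461 members matched in RefSeq had a median length of 75.4 kb against 22.2 kb over all genes matched. Long genes offer more room for regions, so this follows in part from the rule.

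Gene lists by function show which members fell. Their counts are to be read against the whole table, where 91.0% of genes were lower with a median of −0.90, and against the 475 members, where 94.3% were lower with a median of −1.12. With libraries centred, 29.8% of all genes were lower and 34.0% higher, and of the members 48.2% and 25.3%. A list with all members lower on the deposited scale is therefore near the general share. Hepatocyte transcription factors gave 15 members of 45 listed genes, all lower, with a median of −1.53. All 39 listed factors with a region, members included, were lower, with a median of −1.51. Rxra, Rora and Nfia, the listed factors with the most regions, changed by −0.74, −0.99 and −1.18, and Cebpa by −1.57 over 20 regions. With libraries centred, 12 of the 15 were lower and 1 higher. Plasma proteins gave 4 members of 60, Alb, Serpina1b, C8a and Plg, all lower with a median of −2.09. Of the 51 listed plasma protein genes with a region, members included, 50 were lower, with a median of −1.73. Albumin had 267, 247 and 256 normalised reads per region in wild-type libraries and 68.8, 64.2 and 58.6 in knockout libraries, a change of −2.00 ± 0.093, and all 19 of its regions were lower. With libraries centred, all 4 were lower too.

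Growth factor and cytokine signalling gave 13 members of 58, all lower where 91.0% of all genes were, with a median of −1.44. Ghr, the growth hormone receptor, changed by −2.17 ± 0.139 with all 23 regions lower, Prkce by −1.91 and Pik3r1, a regulatory subunit of PI 3-kinase, by −1.69. Carbohydrate, amino acid and xenobiotic metabolism gave 13 of 54, 12 lower and Abcc3 higher, with a median of −1.59, among them Por at −0.92, Slc38a4 at −1.30 and Slc7a2 at −1.59. Lipid and lipoprotein metabolism gave 14 of 51, with 12 lower, Lipc and Plin2 higher and a median of −1.02, and Osbpl1a at −1.42. With libraries centred, 10 of the 13 signalling members were lower and 1 higher, 11 of the 13 metabolic members were lower and 1 higher, and 6 of the 14 lipid members were lower and 5 higher. Over all listed genes with a region, members included, the median changes on the deposited scale were −1.0002 for signalling, −1.59 for metabolism and −1.25 for lipids.

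Cytoskeleton, adhesion and matrix gave 20 of 71, all lower where 91.0% of all genes were, with a median of −1.06, among them Col18a1 at −1.35. With libraries centred, 8 of these 20 were lower and 7 higher, against 29.8% and 34.0% of all genes. Chromatin and transcription cofactors gave 12 of 59, with 11 lower, 1 (Foxp1) that did not pass and a median of −1.08, Arid1b and Tbl1xr1 at −1.07 and −0.72. Early response and stress factors gave 5 of 49, with 4 lower and Klf6 higher, and a median of −1.001. With libraries centred, 4 of the 12 cofactor members were lower and 4 higher, and of the 5 early response members 1 was lower and 1 higher. Zfp36l1 and Zfp36l2, which bind AU-rich mRNA, changed by −1.001 and −1.08. Over all listed genes with a region, members included, the medians were −0.81 for cytoskeleton, −0.97 for cofactors and −0.65 for early response factors.

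Smaller lists gave few members. With libraries centred, Ccnd1 and Per2 were lower and Pvt1 higher, and Cdk6 and Neat1 passed in neither direction. Of 26 cell cycle genes Ccnd1 and Cdk6 were members. Ccnd1, cyclin D1, had 158, 151 and 155 normalised reads per region in wild-type libraries and 43.6, 43.1 and 39.6 in knockout libraries, a change of −1.87 ± 0.101, and all 19 of its regions were lower. The fall ranged within it from −0.43 in the 3′ UTR to −3.24 in a distal region. Cdk6, its kinase partner, changed by −0.83 with 10 regions lower and 1 higher. Per2 was the 1 member of 12 circadian genes, at −1.38. Pvt1 and Neat1, at −1.14, were the 2 members of 18 long noncoding RNA genes. None of 30 genes of the mitochondrial and integrated stress response had enough regions, and of the 24 with a region 12 were lower and 8 higher.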

How the data were processed

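The authors deposited 1 table of normalised read counts per region (a signal) for 6 H3K27ac libraries, with the authors' log2 fold change, p-value and adjusted p-value per region, used only for an alternative count. Per the labels' protocols, samples received spike-in chromatin; the origin of the size factors was not given in the sources used here. BWA 0.7.5, MACS, deepTools 3.5.0 and the mm10 build appear, with no role stated, per the submitters' processing notes. Multiplied by a factor constant within a library, 100% of values were whole reads within 0.01. Coordinates are as in the table, whose counting base is not stated. Of 36446 regions, 59 repeats were dropped. Chromosome 16 was not analysed here.

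Values were transformed to log2(value + 1), which understates the change of weak regions. Limma 3.58.1 in R 4.3.3, with a variance trend and without a filter or replicate block, was fitted to 4 whole tables: regions, gene means over regions, each region minus the mean of the other regions of its gene, and promoter minus other regions of a gene. Benjamini-Hochberg adjustment ran over each table at a threshold of 0.05. The code was run on simulated data in which a small set of regions or genes changed and the rest did not. That run looked at the recovery of known changes and not at false calls, and its setting differs from these data, where most regions fell. Alternatives were another pseudocount, a level filter, a stricter threshold, a replicate block, each library left out and 15 or more regions. Others were median centring, sums per gene, promoters within 3 kb, and the count tests of edgeR 4.0.16 and DESeq2 1.42.0 on whole reads. These count tests used the size factors recovered from the deposited values, apart from an edgeR run with TMM scaling.

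The members, the 12 gene lists and the tests were chosen with earlier results of these data known. Genes were named by rule: the 6 with the most regions, the 5 lowest and 5 highest changes, the 4 widest and 4 narrowest spreads, and up to 3 members per list by number of regions. One gene that the rule names is not reported here. Genes named besides were chosen after their values were seen. The SD that library error alone gives was computed from the limma SE of the regions. Promoter and microRNA sequences are RefSeq's.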

Additional observations from a re-analysis of the deposited data

How the results depend on the processing

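The direction in which most member regions and genes were called held under the other pseudocount, level filter, stricter threshold and every left-out library. For regions it also held with edgeR and DESeq2, run with the size factors recovered from the deposited values. None of these settings changed the scaling, so none could test it. The direction did not hold as a majority of all members once libraries were rescaled. With each library centred on its median, 3257 regions were lower and 2449 higher, and 229 genes were lower and 120 higher. EdgeR with TMM scaling gave 3357 regions lower and 2422 higher. Which scaling fits the amount of mark was not tested. The sum over regions gave 6 higher genes in place of 11. With 15 or more regions as the rule, 260 genes were lower and 4 higher, with 59 promoters that fell more and 73 that fell less, of fewer genes. At an adjusted p under 0.01, 67 promoters fell more and 89 fell less. With promoters taken within 3 kb of a start site, 107 of 449 fell more and 117 fell less.

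Leaving out each library in turn gave 7071 to 7201 lower and 404 to 487 higher regions, 445 to 450 lower and 8 to 12 higher genes, 1718 to 1907 regions that fell more than their gene and 1708 to 1762 that fell less, and 82 to 87 promoters that fell more and 105 to 120 that fell less. EdgeR called 7212 lower and 477 higher regions, DESeq2 7000 and 385, and the authors' deposited table holds 6999 and 385. Same-numbered libraries of the genotypes did not deviate together (correlations of -0.0009, 0.0074 and 0.0054). Samples paired without a shared deviation would give like values, so this check cannot tell whether the numbers pair samples. With the replicate block, 7202 regions were lower and 486 higher, 448 genes lower and 11 higher, 2038 regions fell more and 1916 less than their gene, and 91 promoters fell more and 118 less. Higher regions were weak, with a median of 31.4 normalised reads in wild type, so counting error bears more on their folds than on those of lower regions, with a median of 110.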
